A study of Homo sapiens with 9 samples.

Results

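A set of 10 genes of lipopolysaccharide sensing was followed across 9 RNA-seq libraries of THP-1 cells: the LPS receptor genes TLR4, LY96 and CD14, the adaptor genes MYD88, TICAM1 and TICAM2, the surface receptor genes TLR1, TLR2 and TLR6, and the endosomal receptor gene TLR8. They were taken by symbol from the deposited tables and make up 10 of the 16222 genes listed there. THP-1 is a wild-type line grown from a human monocytic leukaemia, and every culture received PMA, a phorbol ester used to turn these suspended cells into adherent, macrophage-like ones. PMA was followed by PBS in the control group, by LPS in the LPS group, and by LPS together with ABS in the LPS_ABS group, with 3 libraries each. The labels do not spell out ABS, the series title speaks of apoptotic bodies, and no dose or time is given in the sources used here. The labels leave unsaid whether the 3 libraries of a group are separate cultures, and the p-values then reflect only library-to-library spread, which may be technical. The design asks whether PMA-treated THP-1 cells carry the parts that sense LPS, and how the level of each part differed between the 3 treatments.

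LPS, the major lipid of the Gram-negative outer membrane, is extracted by LBP, passed to CD14 and loaded onto MD-2, the product of LY96, which is bound to TLR4. From the cell surface TLR4 signals through MyD88 (gene MYD88) towards NF-kB and inflammatory cytokines. From the endosome, after uptake that needs CD14, it signals through TRAM (gene TICAM2) and TRIF (gene TICAM1) towards IRF3, type I interferon and interferon-induced genes. TLR2 pairs with TLR1 or TLR6 to recognise bacterial lipopeptides, and TLR8 recognises single-stranded RNA in endosomes; these receptors signal through MyD88.

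The 250 bases before the RefSeq start of transcription are shown for CD14 and MYD88, which rose with LPS, and for TLR4, the signalling receptor itself. They come from a set of RefSeq promoter sequences on GRCh38.p14 that held an entry for 8 of the 10 genes. LY96 and TLR1 had none in that set. The CD14 stretch is chr5:140633176-140633425 on the minus strand, with an AP-1 motif in capitals. The MYD88 stretch is chr3:38138411-38138660 on the plus strand, with an interferon-response (ISRE) core in capitals. The TLR4 stretch is chr9:117704153-117704402 on the plus strand, with 2 matches to a PU.1 motif in capitals, both read from the opposite strand. All are written 5′ to 3′ on the strand of the gene. The GENCODE v29 gene starts farther upstream than the RefSeq start in all 3, by 526 bases for CD14, 183 for MYD88 and 228 for TLR4, so these windows lie wholly (CD14) or mostly inside the GENCODE gene.
CD14: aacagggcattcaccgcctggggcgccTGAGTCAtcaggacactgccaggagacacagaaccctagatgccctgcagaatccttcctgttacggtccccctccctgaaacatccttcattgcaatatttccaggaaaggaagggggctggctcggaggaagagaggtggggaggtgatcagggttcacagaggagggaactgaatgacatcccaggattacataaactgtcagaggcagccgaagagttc
MYD88: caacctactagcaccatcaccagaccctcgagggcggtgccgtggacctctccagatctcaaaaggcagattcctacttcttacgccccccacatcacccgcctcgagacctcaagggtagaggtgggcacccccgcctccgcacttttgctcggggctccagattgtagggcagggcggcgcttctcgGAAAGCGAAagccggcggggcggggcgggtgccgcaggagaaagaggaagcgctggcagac
TLR4: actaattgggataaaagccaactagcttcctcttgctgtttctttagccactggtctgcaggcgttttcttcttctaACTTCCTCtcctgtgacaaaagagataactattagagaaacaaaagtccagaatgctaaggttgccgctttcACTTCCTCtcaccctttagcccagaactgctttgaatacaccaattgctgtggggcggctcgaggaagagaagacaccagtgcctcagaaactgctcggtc

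In all, 5 motifs were searched on both strands of these windows: AP-1 (TGANTCA), the ISRE core (GAAANNGAA), an NF-kB motif (GGACTTTCC), PU.1 (GAGGAAGT) and SP1 (GGGCGG). In CD14 the AP-1 match TGAGTCA lies 223 to 217 bases before the start, and 6.6% of 27305 RefSeq windows of the same length held that motif. In MYD88 the ISRE core GAAAGCGAA lies 61 to 53 bases before the start, a motif in 7.06% of windows, beside 4 SP1 matches of which the last 2 share 1 base. The TLR4 matches ACTTCCTC, the reverse complement of the PU.1 motif, lie 173 to 166 and 101 to 94 bases before the start, and 2.13% of windows held that motif. SP1 matched in 42.3% of windows.

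The NF-kB motif was found in 2 of the genes, TLR2 and TICAM1, and in 0.337% of all windows. The 60 bases around each match are shown because this was the least common of the motifs; neither gene passed the test with LPS. They are chr4:153684220-153684279 on the plus strand for TLR2 and chr19:4831797-4831856 on the minus strand for TICAM1, with the motif in capitals, and the TLR2 window too lies inside the GENCODE gene, which starts 210 bases upstream of the RefSeq start.
TLR2: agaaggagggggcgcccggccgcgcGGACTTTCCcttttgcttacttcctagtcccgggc
TICAM1: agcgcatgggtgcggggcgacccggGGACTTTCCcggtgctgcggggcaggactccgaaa

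These matches describe letters in a fixed window, and binding was not measured. The motifs were picked with the sequences already seen, so the shares of all windows are no test of the matches. A TLR8 window held the ISRE core on the opposite strand, 145 to 137 bases before the start.

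Total counts per library ran from 38506162 to 41679412. Summed FPKM of 12 monocyte and macrophage markers was 994 to 1070 in control, 1180 to 1270 in LPS and 1200 to 1410 in LPS_ABS libraries. These sums rest mostly on a few genes such as FCER1G, whose mean was 306 in control and 410 in LPS libraries. Mean FPKM of ITGAM, ITGAX, LYZ, CSF1R, CD33 and the near-absent CSF2RA was lower in LPS than in control libraries, and that of the other markers was higher. The 5 fibroblast markers summed to at most 1.0, 2 B-cell markers to at most 1.28, and those of chondrocytes, T cells, endothelial and epithelial cells to at most 0.391. Libraries also differed in how counts related to base composition. The slope of log2 CPM, as its deviation from the mean of all libraries, against the GC content of the gene's transcript was -0.17 to -0.14 log2 units per 10 GC points in control libraries and -0.30 to -0.02 in LPS libraries. It was 0.22 to 0.36 in LPS_ABS libraries, so that GC-poor genes tended to be lower and GC-rich genes higher in each library of that group. Each test below was therefore also run with an offset that removes a smooth GC trend from each library, called the GC offset here. Whether the GC trend is technical or a property of the cells was not tested. Of the 9 genes tested, 5 had a GC content below the first quartile of tested genes, 42.4%: LY96 with 34.1%, TLR1 with 39.2%, TLR2 and TLR4 with 39.3% and TLR8 with 39.6%. TLR6 lay just above it, at 42.8%. CD14 at 58.0%, MYD88 at 53.8% and TICAM1 at 63.0% lay above the median of 49.2%.

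PMA-treated THP-1 cells given PBS had RNA of the LPS receptor parts TLR4, LY96 and CD14 and of its adaptors MYD88 and TICAM1, at very unequal levels. Among the 10 genes the adaptor gene MYD88 led with 32.4 FPKM in control libraries (mean of n = 3), where FPKM are counts scaled by gene length and library size. CD14, the glycolipid-anchored LPS carrier, followed with 11.9 FPKM, TICAM1 with 9.63 and TLR2 with 7.0, and none of these 4 neighbours overlapped in their control libraries. The genes of the receptor itself were much lower, LY96 with 0.769 FPKM and TLR4 with 0.684. The other receptors TLR8 (0.564), TLR6 (0.379) and TLR1 (0.229) were low as well, and each of these 5 genes overlapped its neighbour in the order. This order rests on the gene lengths implied by the deposited table. They exceed the exonic bases of GENCODE v29 for LY96 (1267 against 607), TLR2 (9443 against 5217), TLR1 (7976 against 4535) and TLR6 (7764 against 6035). They fall short of them for MYD88 (2697 against 3989) and CD14 (1527 against 1886). With the GENCODE lengths the control means would be 21.9 for MYD88, 12.7 for TLR2, 9.65 for TICAM1 and 9.62 for CD14, so TLR2 would stand above CD14 and TICAM1, which would then overlap. LY96 would be at 1.6, with no overlap with TLR4 at 0.66. For TLR4 the implied and GENCODE lengths are both long and alike (12797 and 13272), so this rescaling says little about how its length affects its level.

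TICAM2, which encodes the TRAM adaptor between TLR4 and TRIF, was near 0 in all 9 libraries. Its counts were 0, 1 and 2 in control libraries, 5, 2 and 3 in LPS libraries, and 0 in each LPS_ABS library. A count of 0 allows a level of up to 3 counts, or 0.0797 to 0.0849 TMM-scaled CPM in the LPS_ABS libraries (counting error only). It was the one gene of the 10 that did not pass the low-count filter, and no fold was computed. In GENCODE v29 on GRCh38, TICAM2 lies at chr5:115578650-115602479 on the minus strand, and 82.2% of its 3244 exonic bases also belong to the read-through gene TMED7-TICAM2. That gene has no row in the tables, and how reads in the shared exons were counted is not given in the sources used here.

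**Figure D1:**
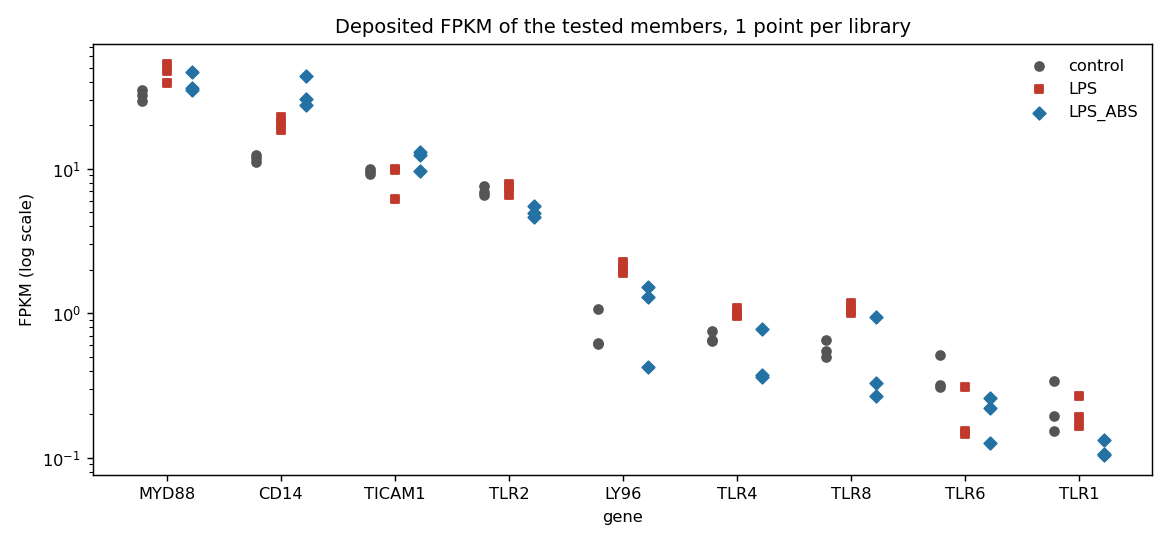
Deposited FPKM (log scale) of the 9 tested genes, 1 point per library, with control as grey circles, LPS as red squares and LPS_ABS as blue diamonds. MYD88, CD14, TICAM1 and TLR2 lay above 4 FPKM in every library, and the other 5 genes below 3 FPKM.

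In LPS-treated cells the receptor genes LY96 and CD14 and the adaptor gene MYD88 were called higher than in control cells. TLR4 rose 1.5-fold and, with all libraries fitted, was called with the GC offset but not without it. LY96 rose 2.75-fold, CD14 1.79-fold and MYD88 1.48-fold, and these were the 3 genes of the 9 tested that passed edgeR's quasi-likelihood F test at an adjusted p under 0.05 over all 12970 tested genes. By the same rule 14.9% of all tested genes were called in this comparison, 1000 higher and 933 lower. The median log2 fold change of the 9 genes was 0.56 and that of all tested genes -0.03. With the GC offset 5 of the 9 were called, all higher, against 21.1% of all tested genes.

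LY96 encodes MD-2, the protein that holds the lipid A part of LPS. Its CPM, counts scaled to the library's TMM-adjusted total, were 1.29, 0.759 and 0.763 in control libraries and 2.3, 2.58 and 2.88 in LPS libraries. The LPS libraries all lay above the controls. This was a log2 fold change of 1.46 ± 0.42 (SE, edgeR adjusted p = 0.0371, n = 3 against 3). Counts were 31 to 54 in control and 100 to 112 in LPS libraries, and leaving out any single control or LPS library moved the adjusted p to between 0.0515 and 0.128. LY96 lies at chr8:73991352-74029087 on the plus strand.

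CD14 hands LPS to MD-2 and carries TLR4 into endosomes. It was measured at 18.4, 16.4 and 17.8 CPM in control libraries and at 27.3, 31.4 and 35.2 CPM in LPS libraries. All LPS values were above all controls. Its log2 fold change was 0.84 ± 0.19 (SE, n = 3 against 3, edgeR adjusted p = 0.0119). The adjusted p was 0.0583 without control replicate 2 and 0.0616 without LPS replicate 3. CD14 lies at chr5:140631728-140633701 on the minus strand.

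MYD88 encodes the adaptor that recruits IRAK kinases to most Toll-like receptors. Control libraries held 91.4, 83.6 and 77.9 CPM and LPS libraries 102, 127 and 145 CPM. The groups did not overlap, and the lowest LPS library was close to the highest control. On the log2 scale the fold change was 0.57 ± 0.17 (SE, edgeR adjusted p = 0.0386, n = 3 against 3). The call was lost without any 1 control library, without LPS replicate 2 or without LPS replicate 3 (adjusted p 0.0599 to 0.172). MYD88 lies at chr3:38138478-38143022 on the plus strand.

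TLR4, the signalling chain of the receptor, had 8.03, 9.3 and 8.02 CPM in control and 13.3, 12.1 and 12.7 CPM in LPS libraries. These groups did not overlap. A log2 fold change of 0.59 ± 0.27 (SE) missed the threshold (edgeR adjusted p = 0.167, n = 3 against 3), in a fit whose spread is shared with the LPS_ABS libraries. The adjusted p was 0.0402 with the GC offset, 0.0136 without LPS_ABS replicate 1 and 0.00839 in a fit of the control and LPS libraries alone. TLR4 lies at chr9:117704175-117724730 on the plus strand.

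TLR8 likewise had 2.8, 2.14 and 2.41 CPM in control and 4.57, 4.42 and 5.3 CPM in LPS libraries. Again every LPS library lay above every control. The log2 fold change of 0.96 ± 0.40 (SE) had an edgeR adjusted p of 0.127 (n = 3 against 3), and of 0.0453 with the GC offset, 0.0108 without LPS_ABS replicate 1 and 0.00686 in the fit of the control and LPS libraries alone. TLR8 lies at chrX:12906620-12923169 on the plus strand.

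The lipopeptide receptors and TRIF were not called with LPS. TLR2 held 62.2, 59.1 and 70.1 CPM in control and 68.0, 61.7 and 74.4 CPM in LPS libraries, with overlapping groups and a log2 fold change of 0.09 ± 0.14 (SE, edgeR adjusted p = 0.704, n = 3 against 3). TICAM1, which encodes TRIF, had 23.7, 25.7 and 25.4 CPM in control and 15.9, 25.9 and 27.0 CPM in LPS libraries, of which LPS replicate 1 was low. TLR1 overlapped between control (1.17 to 2.59 CPM) and LPS libraries (1.34 to 2.1 CPM). TLR6 had 2.35, 2.3 and 3.89 CPM in control and 2.3, 1.17 and 1.13 CPM in LPS libraries, a log2 fold change of -0.89 ± 0.38 (SE) that missed the threshold (edgeR adjusted p = 0.139, n = 3 against 3). TLR1 and TLR6 are neighbours on the minus strand, at chr4:38790677-38856817 and chr4:38823715-38856817, and share 57 exonic bases. TLR2 lies at chr4:153684070-153705702 on the plus strand and TICAM1 at chr19:4815932-4831704 on the minus strand.

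**Figure D2:**
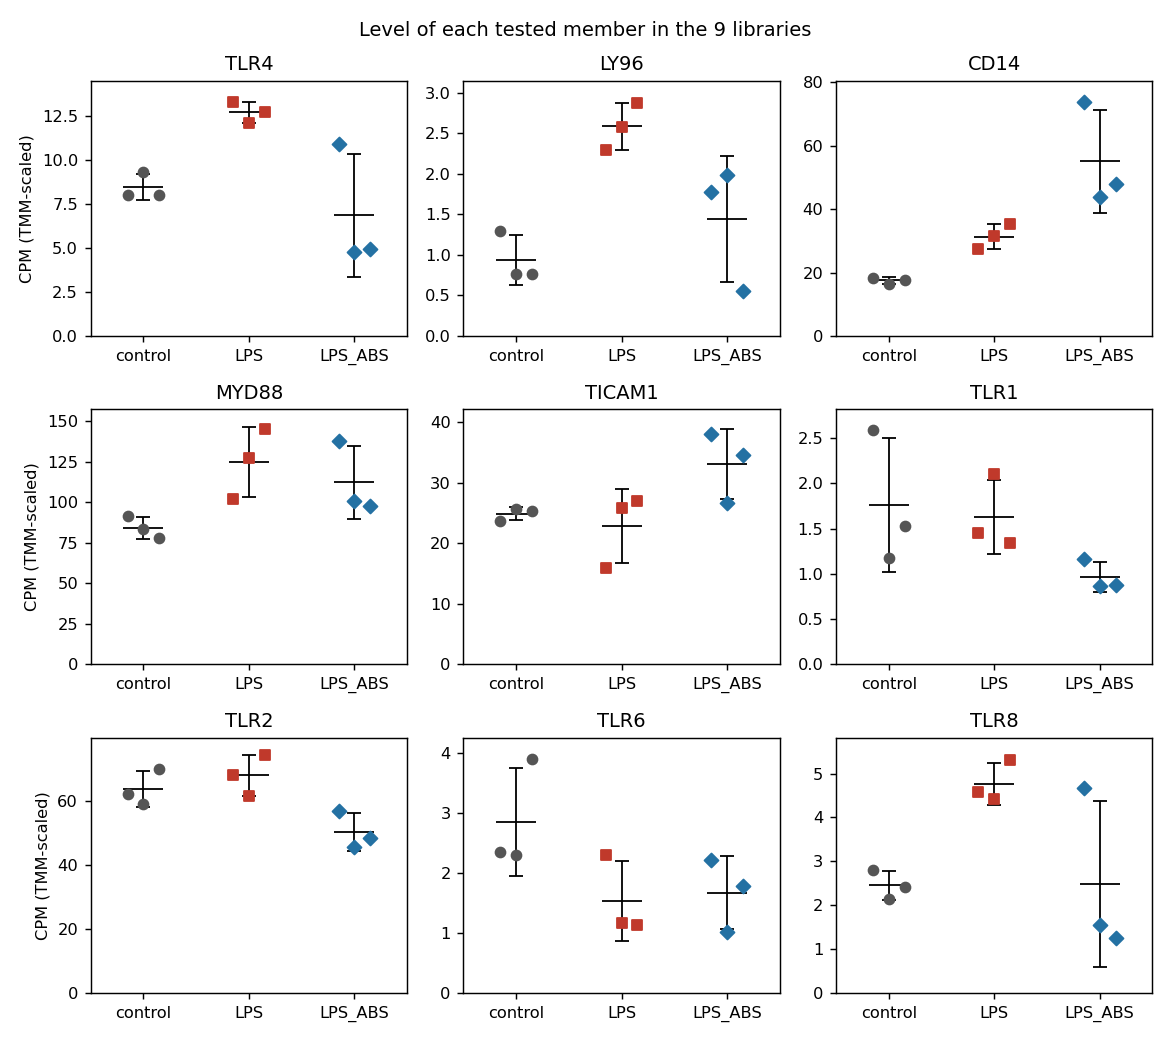
TMM-scaled CPM of the 9 tested genes in each library by treatment, with the mean and SD of each group as bars (n = 3). CD14 increased in level from control (16.4 to 18.4 CPM) to LPS (27.3 to 35.2 CPM) to LPS_ABS (43.9 to 73.7 CPM), while LPS_ABS replicate 1 stood above the other 2 libraries of its group for TLR4 and TLR8.

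When ABS was given with LPS, CD14 was higher still without the GC offset, and TLR4 and TLR2 were lower than with LPS alone. The sign of TLR2 turned with the offset. CD14 rose 1.76-fold, TLR4 fell 1.85-fold and TLR2 fell 1.35-fold by the edgeR test without GC offset. These 3 of the 9 genes stand against 35.6% of all tested genes called (2179 higher, 2442 lower), a share close to theirs. With the GC offset edgeR called 0 of the 9, against 9.19% of all tested genes, while 2 of the 9 had an unadjusted p under 0.05. Without the offset DESeq2 and limma-voom each called 5. The median log2 fold change of the 9 was -0.44 without and -0.11 with the offset, and that of all genes was 0.02 and 0.0.

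CD14 had 73.7, 43.9 and 47.8 CPM in LPS_ABS libraries, all above the LPS libraries. Against LPS the log2 fold change was 0.82 ± 0.19 (SE, n = 3 against 3, edgeR adjusted p = 0.00871). It was called in every fit that left out 1 library. With the GC offset it was 0.43 ± 0.16 (SE, edgeR adjusted p = 0.102). Without LPS_ABS replicate 1, the highest library, it was 0.55. CD14 was thus higher in all LPS_ABS libraries than in all LPS libraries, while its test depended on the GC offset.

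TLR4 had 10.9, 4.77 and 4.94 CPM in LPS_ABS libraries. All 3 lay below the LPS libraries, and LPS_ABS replicate 1 stood apart, above every control. Its log2 fold change against LPS was -0.89 ± 0.27 (SE, edgeR adjusted p = 0.026, n = 3 against 3) and -1.39 without LPS_ABS replicate 1. It missed the threshold without LPS replicate 1, LPS replicate 3, LPS_ABS replicate 2 or LPS_ABS replicate 3 (adjusted p 0.0631 to 0.0924). With the GC offset it was -0.31 ± 0.20 (SE, edgeR adjusted p = 0.31).

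TLR2 had 56.9, 45.6 and 48.3 CPM in LPS_ABS libraries, below all control and LPS libraries. Its log2 fold change against LPS was -0.44 ± 0.14 (SE, edgeR adjusted p = 0.0268, n = 3 against 3). The GC offset turned its sign, to 0.19 ± 0.12 (SE, edgeR adjusted p = 0.342). The direction of TLR2 in LPS_ABS cells therefore depends on how the GC trend is treated. The adjusted p was 0.0516 to 0.104 without LPS replicate 1, LPS replicate 3, LPS_ABS replicate 2 or LPS_ABS replicate 3.

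The other 6 tested genes were not called against LPS by edgeR, with or without the GC offset; TICAM1 (higher) and TLR8 (lower) were called by DESeq2, by limma-voom and with the replicate number as a block. LY96 had 1.78, 1.99 and 0.558 CPM in LPS_ABS libraries, of which the last was below every control and the others between control and LPS. TLR8 had 4.67, 1.54 and 1.25 CPM, so that LPS_ABS replicate 1 was at the level of LPS cells and the other libraries below every control. Its log2 fold change against LPS was -0.94 ± 0.40 (SE, edgeR adjusted p = 0.0813, n = 3 against 3), and -1.77 without LPS_ABS replicate 1 (adjusted p = 0.000531). MYD88 at 138, 101 and 97.7 CPM overlapped the LPS libraries. TICAM1 at 38.1, 26.7 and 34.6 CPM overlapped the LPS libraries, lay above all controls and had an edgeR adjusted p of 0.0538. TLR1 (0.862 to 1.16 CPM) lay below all 6 other libraries with an adjusted p of 0.126, and TLR6 (1.02 to 2.21 CPM) overlapped the LPS libraries and lay below the controls.

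Against control, CD14 was the 1 gene of the 9 called in LPS_ABS cells, against 33.8% of all tested genes (1920 higher, 2468 lower). It rose 3.15-fold, a log2 fold change of 1.66 ± 0.19 (SE, edgeR adjusted p = 0.000302, n = 3 against 3). With the GC offset it remained called, at 1.29 ± 0.16 (SE, edgeR adjusted p = 0.000418). LY96 was called as well with the offset, at 1.35 ± 0.38 (SE, edgeR adjusted p = 0.0335), against 0.62 ± 0.43 (SE, adjusted p = 0.274) without it. Of all tested genes 13.0% were called with the offset. TLR4 was at -0.30 ± 0.27 without and 0.30 ± 0.20 with the offset (log2 scale ± SE, with adjusted p by edgeR of 0.41 and 0.348). Without LPS_ABS replicate 1 and without offset it was -0.80 (adjusted p = 0.00317). This comparison shares its control and LPS_ABS libraries with the other comparisons.

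**Figure D3:**
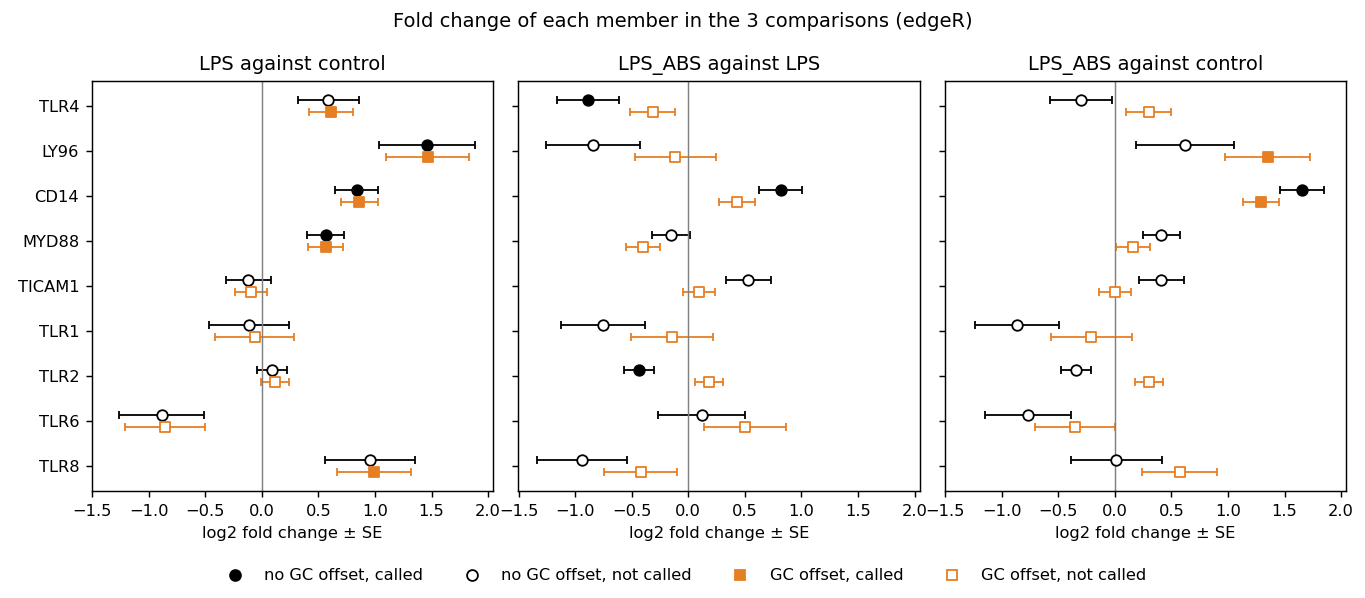
Log2 fold change ± SE (edgeR) of the 9 tested genes in the 3 comparisons, without (black circles) and with (orange squares) the GC offset; filled symbols were called at an adjusted p under 0.05. With and without the offset the values nearly coincide for LPS against control, and they separate in both comparisons with LPS_ABS, where CD14 against control is filled both ways.

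**Figure D4:**
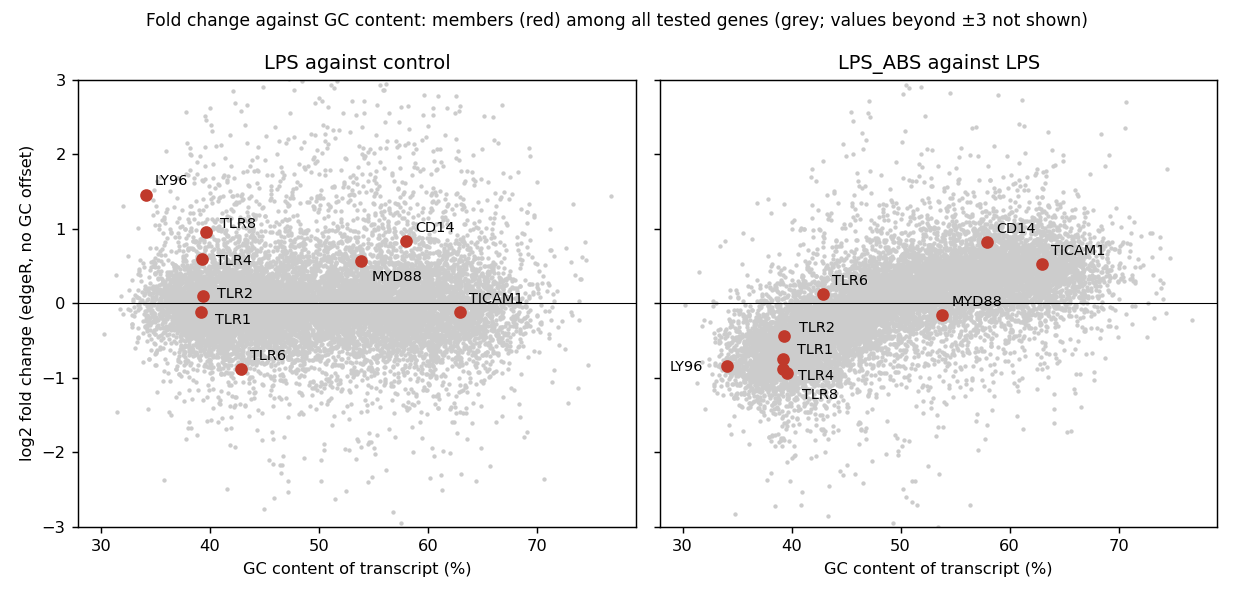
Log2 fold change (edgeR, no GC offset) against the GC content of the transcript for all tested genes (grey) and the 9 genes of LPS sensing (red), for LPS against control and LPS_ABS against LPS. In LPS_ABS against LPS the cloud of all genes slopes upward with GC, and the GC-poor TLR1, TLR2, TLR4, TLR8 and LY96 lie at its lower left and CD14 and TICAM1 at its upper right.

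The proportions of the receptor parts, as ratios of FPKM within a library, are given as a description. The size of each ratio rests on the gene lengths implied by the deposited values, which scale it alike in every group. With the GENCODE lengths the control means would be 1.6 for LY96, 9.62 for CD14 and 0.66 for TLR4, which gives other ratios. CD14 to TLR4 was 17.5 ± 2.38 (SD, n = 3) in control, 20.7 ± 3.12 in LPS and 71.5 ± 13.2 in LPS_ABS libraries. The LPS_ABS ratios were 56.4, 77.2 and 81.0, all above the highest ratio of the other groups, 23.2. LY96 to TLR4 was 1.14 ± 0.43 in control and 2.06 ± 0.28 in LPS libraries, while LPS_ABS libraries spread from 1.14 to 4.22. MYD88 to TICAM1 was 3.38 ± 0.41 in control, 5.53 ± 0.76 in LPS and 3.39 ± 0.51 in LPS_ABS libraries. The genes of the first and last ratio differ in GC content in opposite ways, since CD14 is GC-richer than TLR4 and MYD88 is GC-poorer than TICAM1. Between LPS and LPS_ABS the fitted CD14 to TLR4 ratio was 3.25-fold higher without and 1.68-fold higher with the GC offset. Ratios were not tested, and in bulk RNA fewer expressing cells and less RNA per cell cannot be told apart.

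Around these 10 genes, 74 other genes of the pathway were listed by role, of which 67 were tested. With LPS, edgeR called 6 higher and 5 lower, or 16.4% of them against 14.9% of all tested genes, with a median log2 fold change of -0.04. The GC offset gave 11 higher and 7 lower, or 26.9% against 21.1%. Calls in the rest of this paragraph are edgeR's without the offset unless another is named. Among the other Toll-like receptors TLR7, a sensor of single-stranded RNA, was called, at 1.59 ± 0.48 (SE, edgeR adjusted p = 0.0423), and TLR5 and TLR9 were not. TLR3 and TLR10, with at most 6 and 4 counts, did not pass the low-count filter, and neither did LBP, which delivers LPS to CD14, with at most 13. Of the 5 folding and traffic genes HSP90B1, which encodes the chaperone gp96 that folds Toll-like receptors, fell by 0.69 ± 0.12 on the log2 scale (SE, adjusted p = 0.00377) and the other 4 were not called. UNC93B1, which carries endosomal Toll-like receptors to their compartment, was called higher with the GC offset, at 0.53 ± 0.13 (SE, adjusted p = 0.0111). Of 11 genes of the MyD88 arm TAB1, a partner of the TAK1 kinase, fell and 10 were not called, while DESeq2 called 2 of the 11, none higher. None of 8 TRIF-arm genes, 3 IkB kinase genes, 8 genes that restrain the pathway and 2 of the RP105 complex was called. At an unadjusted p under 0.05 there were 1, 0, 1 and 1 of them, and DESeq2 called 0, 0, 0 and 1. Under the GC offset 1, 0, 1 and 1 were called: IKBKE lower (adjusted p = 0.0351), CYLD higher (0.0406) and LY86 higher (0.0444). SCARB1, a lipoprotein receptor that binds LPS, fell by 0.66 ± 0.19, and GBP2, a guanylate-binding protein of the cytosolic LPS pathway, fell by 0.88 ± 0.16 (log2 fold change ± SE).

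The 2 sets of target genes differed in their calls with LPS, a comparison in which edgeR called 14.9% of all tested genes. The sets were chosen with earlier results of these data known, so this contrast is a description and not a test of the arms. Of 7 tested genes listed for the TRIF and interferon arm, 5 rose: RSAD2, MX1, IFIT1, ISG15 and IFIT2, interferon-induced genes that encode antiviral effectors. The median log2 fold change of the 7 was 1.64, and CXCL10 and CCL5 were not called. Mean CPM in control and LPS libraries was 18.8 and 16.7 for CXCL10 and 134 and 132 for CCL5. TRIF-arm targets is the name of this list, and whether TRIF acted was not tested. RSAD2 had 5.85, 5.06 and 3.27 CPM in control and 19.3, 22.4 and 26.5 CPM in LPS libraries, with no overlap and a log2 fold change of 2.26 ± 0.32 (SE, edgeR adjusted p = 0.000765). Of 10 tested genes known mainly as MyD88-arm targets none was called higher, 1 fell, and the median was -0.48; at an unadjusted p under 0.05, and by DESeq2 and limma-voom, 0 were higher as well. That gene was IL1B, which encodes interleukin-1 beta, at 37.5, 37.6 and 50.8 CPM in control and 12.0, 12.1 and 13.8 CPM in LPS libraries. The log2 fold change of IL1B was -1.73 ± 0.20 (SE, edgeR adjusted p = 0.000229). TNF, the classical early LPS cytokine, was at 0.57 ± 0.41 (SE, edgeR adjusted p = 0.393). It had 49.5, 44.6 and 43.3 CPM in control and 53.5, 47.2 and 103 CPM in LPS libraries, of which LPS replicate 3 stood apart. IL6 and IFNB1, with at most 14 and 7 counts, did not pass the low-count filter.

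With ABS added the calls in both sets had the opposite sign. Of all tested genes 35.6% were called in this comparison. Against LPS alone 5 of 10 MyD88-arm targets rose, IL1B, CXCL1, CXCL2, CCL4 and CCL3, the last 4 of which encode chemokines. The same 5 TRIF-arm targets that had risen with LPS fell: RSAD2, IFIT1, IFIT2, MX1 and ISG15. Both comparisons share the LPS libraries. IL1B reached 85.4, 50.7 and 70.6 CPM in LPS_ABS libraries, a log2 fold change of 2.45 ± 0.20 against LPS (SE, edgeR adjusted p = 0.000313). RSAD2 had 8.52, 4.31 and 3.4 CPM, a log2 fold change of -2.07 ± 0.32 (SE, edgeR adjusted p = 0.00335). With the GC offset 4 MyD88-arm targets rose (IL1B, CXCL8, CXCL1 and CXCL2) and the same 5 TRIF-arm targets fell, against 9.19% of all tested genes called. CCL4 and CCL3 lost their calls with it (edgeR adjusted p 0.0568 and 0.124).

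**Figure D5:**
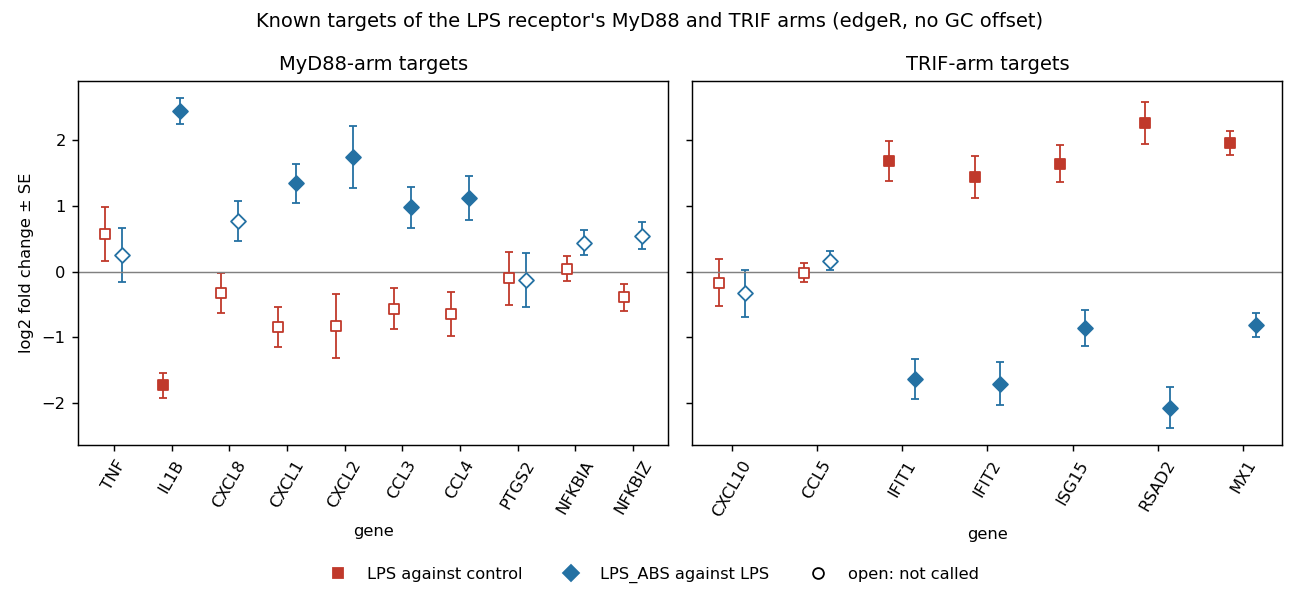
Log2 fold change ± SE (edgeR, no GC offset) of the tested target genes. The left panel holds those known mainly for the MyD88 arm, the right those listed for the TRIF and interferon arm. Red squares are LPS against control, blue diamonds are LPS_ABS against LPS, and open symbols were not called. IL1B lies at -1.73 with LPS and 2.45 with ABS added, and the 5 called TRIF-arm targets lie above 1 with LPS and below 0 with ABS added.

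Of the 67 other genes 17 rose and 19 fell in LPS_ABS against LPS without the GC offset, or 53.7% against 35.6% of all tested genes. With it 6 rose and 8 fell, or 20.9% against 9.19%. The calls in the signalling arms were among those lost. In the MyD88 arm 4 of 11 had risen and 5 had fallen, led by the kinase genes MAP3K7 (-0.72 ± 0.16), IRAK4 (-0.76 ± 0.18) and IRAK1 (0.61 ± 0.15, log2 fold change ± SE), and with the offset edgeR called 0 (5 at an unadjusted p under 0.05). In the TRIF arm 4 of 8 had risen, TRAF3, IRF3, IKBKE and TRADD, and 1 had fallen, the kinase gene TBK1 (-0.74 ± 0.19). With the offset edgeR called 0 of these 8 (2 at an unadjusted p under 0.05). The IkB kinase gene CHUK and the restraining genes CYLD, IRAK3 and INPP5D also lost their calls. On the receptor side 4 genes were called both ways: ITGAM, a subunit of complement receptor 3, rose by 1.16 ± 0.17 without and 0.90 ± 0.14 with the offset, and SCARB1 rose by 0.86 ± 0.19 and 0.54 ± 0.15. CD180, which encodes the TLR4-related receptor RP105, fell by 0.98 ± 0.19 and 0.75 ± 0.18, and CASP4, which encodes a cytosolic LPS receptor, fell by 0.72 ± 0.16 and 0.58 ± 0.17 (log2 scale ± SE). Against control, 12 of the 67 were called higher and 14 lower in LPS_ABS cells, or 38.8% against 33.8% of all tested genes. With the offset 6 were higher and 4 lower, or 14.9% against 13.0%. CD180, HSP90B1 and GBP2 were lower and IL1B and MX1 higher both ways in that comparison.

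As a description of the pattern over the 9 libraries, the 3 genes with log2 CPM most like each receptor gene were found among 10633 genes with a mean of at least 100 counts (10634 for LY96). For TLR4 they were PIK3CA, RB1CC1 and TCEANC2 (Pearson r 0.978, 0.976 and 0.973). For LY96 they were CDK7, FCER2 and RSL24D1 (r 0.964, 0.961 and 0.96), and for CD14 they included IFI30 and AP2M1 (r 0.979 and 0.977). The 9 points share 3 treatments and the library-wide GC trend, so no p is given.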

How the data were processed

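The 3 treatments had 3 RNA-seq libraries each. Per the labels' protocols, TRIzol was used for extraction, and each sample lists both a VAHTS Universal V5 and a TruSeq stranded library kit. Per the submitters' processing notes, the tools were DESeq2, R 3.2.0, HTSeq, HISAT2 and fastp. Build, annotation and strand setting are not given in the sources used here. The authors deposited raw read counts per gene and FPKM values for 16222 genes. Each deposited FPKM equals the count over the library total and a fixed gene length (largest relative spread of that length 1.5e-13).

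Counts were tested with edgeR 4.0.16 (R 4.3.3): the low-count filter of filterByExpr, TMM scaling, and 1 quasi-likelihood fit of the 3 groups over 12970 genes (6 residual degrees of freedom, coefficient of variation 18.4%). P-values were adjusted by Benjamini-Hochberg over all tested genes, the threshold for a call was 0.05, and the SE is the size of the log2 fold change divided by the square root of F. CPM are TMM-scaled and compare libraries within a gene, and FPKM compare genes. The GC offset was a lowess curve (span 0.3) per library against transcript GC (longest protein-coding transcript, GENCODE v29), known for 16115 genes (99.34%). Alternatives were total-count and DESeq2 (1.42.0) scaling, DESeq2, limma-voom (limma 3.58.1), no filter, the compared groups alone, the replicate number as a block, and leaving out each library. Fits were also run on simulated counts that gave all genes and groups the same spread between libraries. Their outcome is not reported here, and they say nothing about unequal spread between groups. Libraries of a group differed beyond sampling noise (chi-square over its degrees of freedom at least 7.073). Same-numbered libraries of different groups had correlations of deviations from -0.0352 to 0.203, not all above 0.1, so the numbers were not taken to pair samples.

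Genes were named by this rule: all 10 members, of each role list up to 4 called genes with the smallest adjusted p per comparison, counts for every list, and the 3 genes most correlated with TLR4, LY96 and CD14, of which 1 is not reported here. Of a list with 5 called genes all were named. In other lists some called genes within the rule, such as UBE2N, CD36 and ITGB2, were counted and not named. Genes that were not called were named as exceptions after their values were seen. The members and lists were chosen with earlier results of these data known. The motifs were chosen after the promoter sequences had been seen. Coordinates of genes are GENCODE v29 on GRCh38.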

Additional observations from a re-analysis of the deposited data

How the results depend on the processing

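With LPS against control, the count of the 9 tested members called was 3, and it was 5 with the compared groups alone, 5 with the GC offset and 5 with the replicate block and GC offset together. For the other pathway genes the count of 11 became 18 with DESeq2, 19 with the compared groups alone, 18 with the GC offset and 19 with replicate block and GC offset, and for all genes the 1933 calls became 3245 with the compared groups alone. With LPS_ABS against LPS, the 3 members called became 5 with DESeq2, 5 with limma-voom, 5 with the replicate block, 0 with the GC offset, 0 with replicate block and GC offset, and 0 with the GC offset without LPS_ABS replicate 3. The 36 other pathway genes became 14 with the GC offset and 15 with block and offset, and the 4621 of all genes became 3042 with the compared groups alone, 1192 with the offset and 1411 with block and offset. With LPS_ABS against control, the 1 member became 2 with total counts, 3 with DESeq2, 2 with the GC offset, 2 with block and offset, and 2 with the offset without LPS_ABS replicate 1 or 3. The 26 other pathway genes became 10 and 9, and the 4388 of all genes 1682 and 1759, with the offset and with block and offset.

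Signs changed in these cases. TLR2 in LPS_ABS against LPS was 0.186 with the GC offset, 0.188 with block and offset, and 0.233 and 0.113 with the offset without LPS_ABS replicate 1 and 3; against control it was 0.305, 0.307, 0.351 and 0.231 in the same order. TLR4 in LPS_ABS against control was 0.30 with the offset, 0.277 with block and offset and 0.397 with the offset without LPS_ABS replicate 3. LY96 in LPS_ABS against LPS was 0.144 with the offset without LPS_ABS replicate 3. In LPS_ABS against control with the offset, MYD88 was -0.024 without LPS_ABS replicate 1, TICAM1 was -0.063 without replicate 1 and -0.040 without replicate 3, and TLR8 was -0.043 without replicate 1. TLR8 in that comparison was also -0.131 with total counts, -0.243 with limma-voom and -0.117 with the replicate block. The cause was not tested. The fits that combine the offset with a left-out library, and levels with GENCODE lengths, were chosen after seeing the data.

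Leaving out 1 library at a time gave 0 to 5, 1 to 4 and 1 to 4 members called in LPS against control, LPS_ABS against LPS and LPS_ABS against control. The other pathway genes gave 7 to 17, 21 to 35 and 13 to 31, and all genes 873 to 2710, 2360 to 4918 and 2351 to 4793. The log2 fold change of TICAM1 with LPS ranged from -0.253 to 0.088, of TLR1 with LPS from -0.336 to 0.272, of TLR6 in LPS_ABS against LPS from -0.132 to 0.533, and of TLR8 in LPS_ABS against control from -0.815 to 0.336. Over all single-gene values under the alternatives, 101 of called genes kept direction and call, 29 lost the call and 4 changed sign. Of genes not called, 332 stayed so, 33 were called and 23 changed sign. The replicate block changed no member's call in LPS against control or LPS_ABS against control, and added TICAM1 and TLR8 in LPS_ABS against LPS. Depth limits LY96, TLR1, TLR6 and TLR8, with at most 206 counts in any library, and TICAM2, which could not be tested.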
